A study of Mus musculus with 18 samples.

Results

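The 9 genes described here set, maintain or remove cytosine methylation in mouse DNA, and they were found by matching the Ensembl identifiers of the count table to their symbols. All 9 were present among the 46078 genes of the table and all 9 passed the filter on low counts that left 13438 protein-coding genes for testing. They are the de novo methyltransferases Dnmt3a and Dnmt3b with their catalytically inactive partner Dnmt3l, the maintenance methyltransferase Dnmt1 with its guide Uhrf1, the dioxygenases Tet1, Tet2 and Tet3, and the DNA glycosylase Tdg. In GENCODE M21 (GRCm38) the de novo genes lie with Dnmt3a at chr12:3806007-3914443, Dnmt3b at chr2:153649450-153687730 and Dnmt3l at chr10:78041947-78063622, and the maintenance genes with Dnmt1 at chr9:20907209-20959888 and Uhrf1 at chr17:56303321-56323486. The erasers lie with Tet1 at chr10:62804570-62908996, Tet2 at chr3:133463679-133545139, Tet3 at chr6:83362373-83459084 and Tdg at chr10:82629828-82650799.

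The cells were E14 mouse embryonic stem cells (mESCs), an established wild-type line of 129 background, grown on fibronectin-coated StemBond hydrogels in medium with serum and the cytokine LIF and lysed after 24 h. StemBonds are polyacrylamide gels that carry the co-factor AHA, whose carboxyl ends anchor extracellular matrix, so that AHA concentration sets how firmly matrix is tethered. Soft gels had a modulus near 750 Pa and stiff gels one near 160 kPa, and either kind was made with AHA at 16 mM (called low), at 48 mM (mid) or at 80 mM (high), with 3 libraries in each of the 6 groups. All groups shared the line, medium, coating and time, there was no culture plastic group, and the labels did not say whether the libraries of a group came from separate cultures, so p-values measure only the spread between these libraries.

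In mammals methyl groups are placed mainly on cytosines of CpG dinucleotides. DNMT3A and DNMT3B set new methylation and are helped by DNMT3L, whereas DNMT1 restores it on the new strand behind the replication fork after UHRF1 has bound the half-methylated site. TET enzymes oxidise 5-methylcytosine to 5-hydroxymethylcytosine and further, and TDG excises the most oxidised forms so that base excision repair can put back an unmodified cytosine. mESCs in serum carry high levels of methylation and express both the de novo enzymes and Tet1 and Tet2, and naive conditions and the post-implantation epiblast differ strongly in the balance between them. Only RNA was measured in these libraries, not methylation.

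Gene counts per library ranged from 5850621 to 9290261. ERCC spike-ins, which are synthetic RNAs added as a reference, took 0.607 to 0.725% of the counts of 17 libraries and 1.37% in soft, high AHA replicate 1, which was left out of the tests and is given separately. Levels are CPM, the count of a gene scaled to library size by TMM over the tested protein-coding genes. Of 8 pluripotency markers all were tested, and Pou5f1, which encodes OCT4, stood at 551 ± 22.4 CPM on soft (SD, n = 8) and 540 ± 30.0 CPM on stiff gels (SD, n = 9). Pou5f1 was not typical of the list, since 6 of the 8 markers were higher on soft gels in the test described below.

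The promoters of these genes differ as widely as their roles, and those of a de novo enzyme and of the 2 TET genes that differed are shown for orientation. RefSeq (GRCm38.p6) gave 16 windows for the 9 genes, each running from 250 bases before a transcription start to 50 bases after it. The 250 bases before the start are printed 5' to 3' in the direction of the gene for Dnmt3b, Tet1 and Tet2, with every CpG, the dinucleotide on which these enzymes act, in capitals:
Dnmt3b, chr2:153649199-153649448 (+ strand): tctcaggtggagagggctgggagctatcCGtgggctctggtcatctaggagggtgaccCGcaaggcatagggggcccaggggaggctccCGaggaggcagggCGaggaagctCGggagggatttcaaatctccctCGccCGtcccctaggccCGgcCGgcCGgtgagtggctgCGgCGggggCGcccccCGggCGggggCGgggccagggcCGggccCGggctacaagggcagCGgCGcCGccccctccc
Tet1, chr10:62887325-62887574 (- strand): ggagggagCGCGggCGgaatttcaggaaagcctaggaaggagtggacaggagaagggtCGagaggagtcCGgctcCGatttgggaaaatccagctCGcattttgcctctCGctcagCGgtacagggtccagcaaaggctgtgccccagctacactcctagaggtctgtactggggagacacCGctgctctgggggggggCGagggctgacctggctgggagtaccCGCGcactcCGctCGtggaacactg
Tet2, chr3:133544391-133544640 (- strand): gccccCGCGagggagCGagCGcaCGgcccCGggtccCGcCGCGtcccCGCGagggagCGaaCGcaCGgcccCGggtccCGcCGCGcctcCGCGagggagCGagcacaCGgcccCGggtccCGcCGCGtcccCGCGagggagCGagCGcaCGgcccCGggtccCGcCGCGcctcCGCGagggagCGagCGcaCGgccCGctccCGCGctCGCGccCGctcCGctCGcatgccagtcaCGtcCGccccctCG
Over the whole windows of 300 bases Tet2 held 57 CpG, more than 99.8% of the 32851 windows in the RefSeq table, Dnmt3b held 30 and Tet1 held 17. The median of all windows was 7. The Tet1 window is the only one of that gene and lies inside its GENCODE span. The 5' end of that span, chr10:62908996 on the - strand, had no window. The Tet2 window also holds a stretch of 43 bases that occurs 2 times without overlap, whereas the longest such repeat in any window of the other 8 genes was 13 bases. Dnmt3a windows held 18 to 47 CpG, and the 3 windows of Dnmt3l held 3 to 6, so the 3 de novo genes do not share CpG content.

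Dnmt1 and Uhrf1 act together at the replication fork, and E2F factors are known to drive genes of S phase. The E2F motif TTTCGCGC, searched on both strands, was present in 1 window of each of these genes, in none of the other 7 genes and in 0.323% of all windows, and it is shown in capitals here, on the reverse strand for Dnmt1:
Dnmt1, chr9:20952795-20952873 (- strand): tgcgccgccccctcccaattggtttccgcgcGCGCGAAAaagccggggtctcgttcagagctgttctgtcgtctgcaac
Uhrf1, chr17:56304088-56304175 (+ strand): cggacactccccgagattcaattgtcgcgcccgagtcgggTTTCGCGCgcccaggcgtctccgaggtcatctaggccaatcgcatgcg
A second E2F form, TTTGGCGC, was found only in Dnmt1 among the 9 genes and in 0.514% of all windows. The ESRRB motif TCAAGGTCA (0.423% of all windows) and the octamer ATGCAAAT (1.74%) were in none of the 16 windows, and the short TEAD motif CATTCC (14.7%) was in 1 window each of Dnmt3l and Uhrf1. None of the motifs overlapped another. A match is a run of letters and not a measured binding site.

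Levels between genes were compared as CPM per kilobase of merged exons over the 17 libraries. Dnmt3l stood highest at 153 ± 9.03 (SD), followed by Dnmt3b at 136 ± 7.84. Uhrf1 at 80.9 ± 3.89 and Dnmt1 at 80.7 ± 3.26 did not differ beyond their spread, and Tet1 followed at 62.0 ± 4.41. Dnmt3a at 11.3 ± 0.980 and Tet2 at 9.99 ± 0.953 were close on this scale, with ranges of 9.69 to 13.3 and 8.70 to 11.7 that overlapped. Tet3 stood at 4.24 ± 0.347 and Tdg last at 1.56 ± 0.372. The ranges of Dnmt3l (133 to 169) and Dnmt3b (118 to 146) also overlapped. When only coding exons were used for length, Tet1, whose untranslated exons are long, moved from rank 5 to rank 3 and the other order held except for Uhrf1 and Dnmt1, which moved down 1 place each. Dnmt3a and Tet2 were then no longer close, at 66.6 and 29.3 CPM per coding kilobase.

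Soft and stiff StemBonds were compared first as the average of the 3 differences at equal AHA. Tet1 and Tet2 were higher on soft gels, and Dnmt3a, Dnmt3b and Dnmt3l were lower. The differences were small, between 7.64 and 17.2% in size. A total of 5 of the 9 genes passed the test (edgeR quasi-likelihood, Benjamini-Hochberg adjusted p under 0.05), where 8.59% of all 13438 tested genes did (3.77% higher and 4.82% lower on soft gels). Among the 2511 genes with a mean of 100 CPM or more, which include these 5, the share was 20.5%. In a bulk sample fewer cells that express a gene and less RNA of it per cell cannot be told apart.

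**Figure D1:**
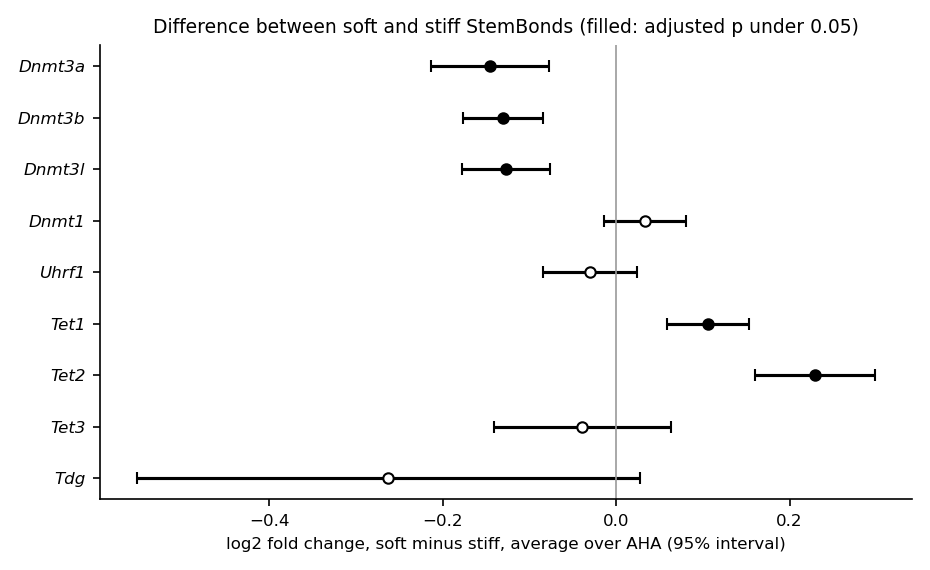
Log2 fold change of each of the 9 genes, soft minus stiff averaged over the 3 AHA concentrations, with its 95% interval; filled points passed the test. Tet1 (0.11) and Tet2 (0.23) lie above 0 and Dnmt3a (-0.15), Dnmt3b (-0.13) and Dnmt3l (-0.13) below it, while the other 4 intervals include 0. Scaled to ERCC spike-ins, the points of Uhrf1 and Tet3 moved to the other side of 0.

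**Figure D2:**
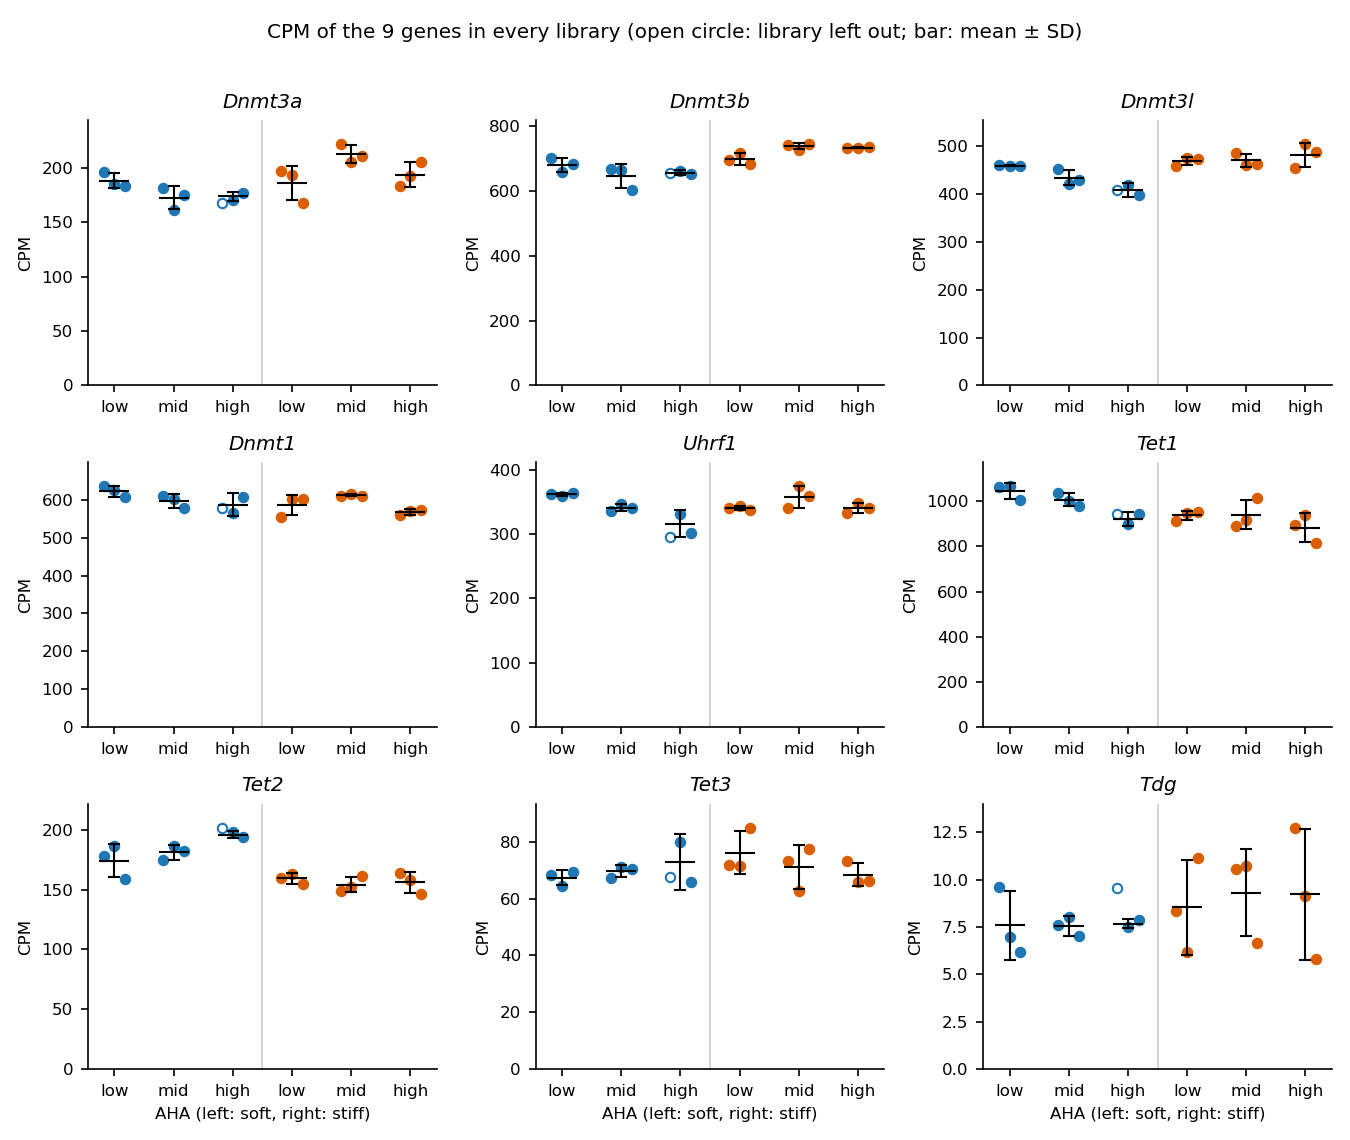
CPM of each gene in all 18 libraries, soft groups in blue at the left and stiff groups in orange at the right of each panel, with the mean and SD of each group (n = 3, or 2 for soft, high AHA); the open circle is the library left out. Tet2 runs from 159 to 198 CPM on soft and 147 to 164 CPM on stiff gels, and no gene separates all soft from all stiff libraries.

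Tet2 encodes the dioxygenase that acts largely on gene bodies and enhancers in mESCs. Its level on soft gels was 178, 186 and 159 CPM at low AHA, 174, 186 and 183 CPM at mid AHA, and 198 and 194 CPM at high AHA. On stiff gels it was 160, 163 and 155 CPM at low, 149, 152 and 161 CPM at mid, and 164, 158 and 147 CPM at high AHA. A total of 7 of the 8 soft libraries lay above all 9 stiff libraries, and the exception was the lowest soft, low AHA library. The average difference was 0.23 ± 0.035 on the log2 scale (SE, adjusted p = 9.9e-08), 17.2% higher on soft gels. The library left out stood at 201 CPM, higher than every other library.

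Tet1, the TET gene with the highest level here, had 1065, 1067 and 1004 CPM on soft, low AHA gels, 1036, 1003 and 979 CPM on soft, mid AHA gels, and 901 and 943 CPM on soft, high AHA gels. On stiff gels the values were 914, 948 and 951 CPM at low, 892, 916 and 1014 CPM at mid, and 894, 940 and 813 CPM at high AHA. Soft and stiff libraries overlapped, with 3 of 8 soft libraries above all stiff ones and 3 of 9 stiff libraries below all soft ones. The average difference was 0.11 ± 0.024 (log2, SE, adjusted p = 0.00079).

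Dnmt3b, the main de novo enzyme of the early embryo, had 702, 658 and 684 CPM on soft gels at low AHA, 670, 665 and 605 CPM at mid and 662 and 652 CPM at high AHA. On stiff gels it had 696, 719 and 683 CPM at low, 744, 728 and 745 CPM at mid and 733, 733 and 738 CPM at high AHA. The soft and stiff ranges met only at low AHA, and 6 of 8 soft libraries lay below every stiff library. The average difference was -0.13 ± 0.023 (log2, SE, adjusted p = 7.34e-06), so that Dnmt3b fell by 8.64% on soft gels. Of the 50-base windows of Dnmt3b transcripts 9.81% also occur in its rodent paralogue Dnmt3c, which had at most 13 counts in a library against 2916 to 4778 for Dnmt3b.

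Dnmt3l, which binds unmethylated histone H3 and stimulates the de novo enzymes, had 460, 459 and 458 CPM on soft, low AHA gels. It had 452, 421 and 430 CPM on soft, mid AHA gels and 419 and 398 CPM on soft, high AHA gels. On stiff gels the values were 459, 476 and 473 CPM at low, 486, 462 and 463 CPM at mid and 455, 504 and 487 CPM at high AHA. A total of 5 of the 8 soft libraries lay below all stiff ones. The average difference was -0.13 ± 0.026 (log2, SE, adjusted p = 9.49e-05).

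Dnmt3a, the second de novo enzyme, had 196, 185 and 184 CPM on soft gels at low AHA, 182, 161 and 175 CPM at mid and 171 and 177 CPM at high AHA. On stiff gels it had 197, 193 and 168 CPM at low, 221, 205 and 211 CPM at mid and 183, 192 and 206 CPM at high AHA. Soft and stiff libraries overlapped, and 5 of the 9 stiff libraries lay above all soft ones. The average difference was -0.15 ± 0.034 (log2, SE, adjusted p = 0.00121). Pooled over AHA, the ratio of Dnmt3b to Dnmt3a counts was 3.71 ± 0.209 on soft (SD, n = 8) and 3.69 ± 0.237 on stiff gels (SD, n = 9), and that of Dnmt3l to Dnmt3b counts was 0.661 ± 0.0341 and 0.655 ± 0.0257. Group means of the ratio of Dnmt3b to Dnmt3a on soft and stiff gels were 3.62 and 3.77 at low, 3.76 and 3.48 at mid, and 3.787 and 3.804 at high AHA. Those of Dnmt3l to Dnmt3b were 0.674 and 0.672 at low, 0.673 and 0.636 at mid, and 0.622 and 0.656 at high AHA, so neither ratio differed in 1 direction throughout.

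Whether the 3 de novo genes were called depended on how libraries were scaled. The values above used TMM, which centres most genes on no change. When libraries were scaled to ERCC spike-ins instead, the median of all genes moved by 0.065 and the fold changes became -0.082 for Dnmt3a, -0.066 for Dnmt3b and -0.062 for Dnmt3l on the log2 scale, with adjusted p of 0.394, 0.456 and 0.5. Tet1 (0.17, adjusted p = 0.0103) and Tet2 (0.29, adjusted p = 1.09e-05) passed under that scaling too. Over all genes the calls were 43.8% higher on soft gels with TMM and 79.2% higher with ERCC scaling.

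A ratio of 2 genes within a library does not depend on the scaling. The ratio of Tet2 to Dnmt3b counts had a median of 0.281 on soft gels (lowest 0.232, highest 0.302) and of 0.216 on stiff gels (lowest 0.199, highest 0.229), so the 8 soft and 9 stiff libraries did not overlap. Of all tested genes 2.66% had counts that did not overlap between soft and stiff libraries once divided by those of Dnmt3b. The ratio of Tet2 to Dnmt3a counts did overlap, with a lowest soft value of 0.865 and a highest stiff value of 0.923. The ratio of Tet1 to Dnmt3b counts was 1.51 ± 0.0877 on soft (SD, n = 8) and 1.27 ± 0.0893 on stiff gels (SD, n = 9), with ranges of 1.36 to 1.62 and 1.1 to 1.39 that overlapped. The library left out had 0.307 and 1.44. These pairs were chosen after their values were seen and carry no test.

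**Figure D3:**
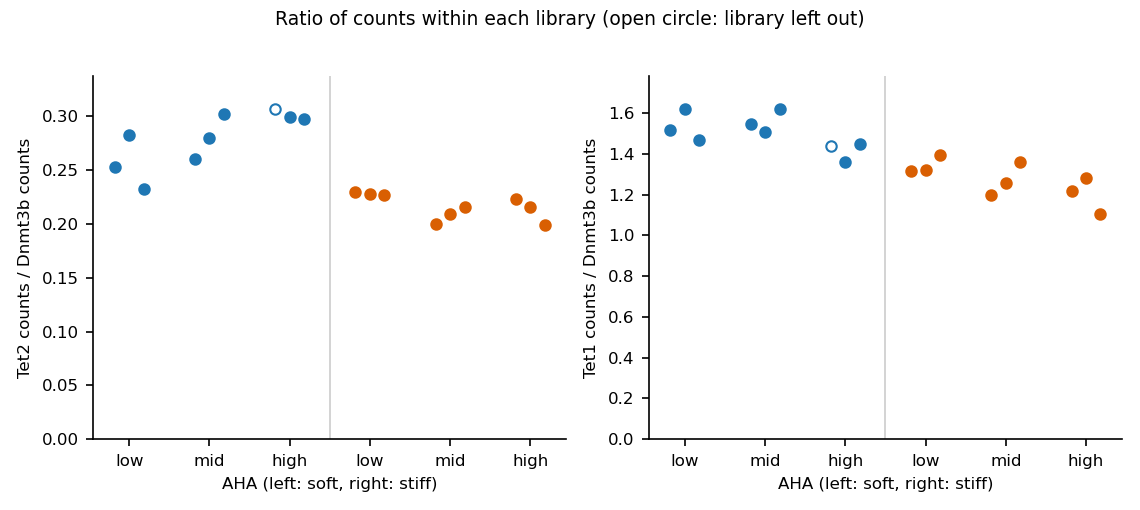
Counts of Tet2 (left) and Tet1 (right) divided by counts of Dnmt3b in the same library, for soft (blue) and stiff (orange) gels at low, mid and high AHA; each point is a library and the open circle the one left out. All soft points of the Tet2 ratio (0.232 or more) lie above all stiff points (0.229 or less).

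The maintenance pair did not pass the test on average over AHA. Dnmt1 ranged from 566 to 636 CPM on soft (median 608) and from 555 to 615 CPM on stiff gels (median 601), with a difference of 0.033 and a 95% interval of -0.014 to 0.081 (log2, adjusted p = 0.474). Uhrf1 ranged from 301 to 364 CPM on soft (median 344) and from 333 to 374 CPM on stiff gels (median 341), with a difference of -0.030 and an interval of -0.084 to 0.024 (adjusted p = 0.594). Uhrf1 shares 15.4% of its 50-base transcript windows with other genes, mostly the processed pseudogene Gm5648 on chromosome X, which had 367 to 687 counts in a library against 1394 to 2169 for Uhrf1. When the counts of Gm5648 were added to Uhrf1, an alternative chosen after seeing the data, the difference was -0.035 (adjusted p = 0.484).

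Tet3 and Tdg had the lowest levels and the least precise differences. Tet3, the TET enzyme of the oocyte and of differentiated cells, ranged from 64.3 to 79.8 CPM on soft (median 68.9) and from 62.7 to 84.9 CPM on stiff gels (median 72.0), with a difference of -0.039 and a 95% interval of -0.14 to 0.063 (log2, adjusted p = 0.749). Tdg had 25 to 83 counts in a library and a difference of -0.26 with an interval of -0.55 to 0.027 (adjusted p = 0.314). With 1 library left out it ran from -0.35 to -0.15, the latter without stiff, high AHA replicate 1. Tdg is uncertain, since 41.2% of its 50-base windows occur in other genes, chiefly the processed pseudogenes Tdg-ps (16 to 45 counts) and Gm9855 (95 to 168 counts), so reads of 1 gene may be counted at another. An alternative chosen after seeing the data added the counts of Tdg-ps, Gm9855 and another pseudogene, Gm5597, to those of Tdg. The sum was 158 to 283 counts, with Gm9855 the largest part. It was lower on soft gels by a log2 difference of -0.22 ± 0.068 (SE, adjusted p = 0.023), which cannot be assigned to Tdg itself. In addition, 6.83% of its exon bases lie opposite exons of another gene, and the strand setting of the counting was not stated.

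The same comparison at each AHA concentration asked whether the effect of stiffness depended on tethering. Tet1 was the only one of the 9 genes called at low AHA, where 3.04% of all genes were, with a difference of 0.16 ± 0.040 (log2, SE, adjusted p = 0.00837). At mid AHA, with 2.86% of all genes called, Dnmt3a (-0.30 ± 0.057, adjusted p = 0.000111), Dnmt3b (-0.19 ± 0.039, adjusted p = 0.000276) and Tet2 (0.23 ± 0.058, adjusted p = 0.0084) passed. At high AHA, with 0.841% of all genes called, Dnmt3l (-0.24 ± 0.048, adjusted p = 0.00116), Dnmt3b (-0.16 ± 0.043, adjusted p = 0.0394) and Tet2 (0.33 ± 0.064, adjusted p = 0.000751) passed.

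Of the 7 calls within a concentration 3 held in all 17 fits that left out 1 library: Dnmt3a at mid AHA (adjusted p up to 0.0107), Dnmt3b at mid AHA (up to 0.0313) and Tet2 at high AHA (up to 0.0476). The other 4 did not. The call of Tet1 at low AHA was lost without soft, low AHA replicate 1 or 2 or stiff, low AHA replicate 1 (adjusted p up to 0.0948). The call of Dnmt3l at high AHA was lost without soft, high AHA replicate 3 (adjusted p = 0.116), and that of Tet2 at mid AHA without soft, mid AHA replicate 2 or stiff, mid AHA replicate 1 (adjusted p = 0.0698 and 0.0623). The call of Dnmt3b at high AHA was lost in 7 of the 17 fits that left out 1 library, with adjusted p up to 0.294, and also with a filter of at least 2 counts (adjusted p = 0.0578), with all biotypes (adjusted p = 0.0668) and in a fit of these 2 groups alone (adjusted p = 0.112). With ERCC scaling Tet1 at low AHA had nearly the same difference, 0.15, but was not called (adjusted p = 0.642), and none of the 3 de novo genes was called at mid or high AHA (Dnmt3a -0.20 and Dnmt3b -0.092 at mid, Dnmt3b -0.054 and Dnmt3l -0.13 at high AHA), and Tet2 was called at both (adjusted p = 0.0294 and 0.0108). Uhrf1, not called at high AHA, was called there with soft, high AHA replicate 2 set aside in place of replicate 1 (-0.19, adjusted p = 0.0169).

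The libraries at each concentration showed where the genes separated. At mid AHA the soft libraries of Dnmt3a, Dnmt3b and Dnmt3l all lay below and those of Tet2 all above the 3 stiff libraries. At high AHA, with 2 soft libraries, the same 4 genes separated in the same directions, and Uhrf1 was below. At low AHA none of these 4 genes separated; Dnmt1, Uhrf1 and Tet1 lay above and Tet3 below their stiff libraries. Such separation was common among all tested genes, at 18.2% at low, 18% at mid and 24.7% at high AHA, and over all 8 soft against all 9 stiff libraries it was found for 1.27% of genes and for 0 of these 9.

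**Figure D4:**
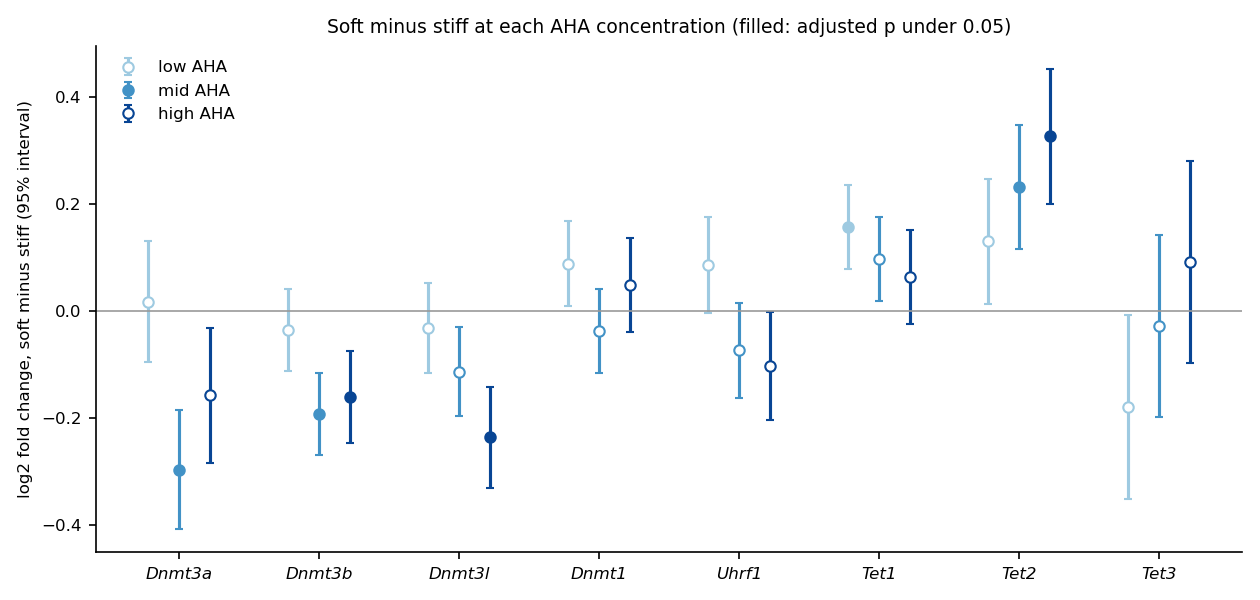
Log2 fold change, soft minus stiff, at low, mid and high AHA (light to dark) for 8 of the 9 genes, with 95% intervals; filled points passed the test in their own contrast, and Tdg is left out because its intervals are wide. Dnmt3a, Dnmt3b and Dnmt3l lie between -0.036 and 0.017 at low AHA and below 0 at mid and high AHA, and Tet2 runs from 0.13 to 0.33.

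For the 3 de novo genes the differences at low AHA were 0.017 (Dnmt3a), -0.036 (Dnmt3b) and -0.031 (Dnmt3l) on the log2 scale. With ERCC scaling Dnmt3l at mid AHA was also near 0, at -0.013. For Tet2 they were 0.13, 0.23 and 0.33 at low, mid and high AHA, and for Tet1 0.16, 0.098 and 0.064. With 1 library left out, Tet2 at low AHA ran from 0.082 (without soft, low AHA replicate 2) to 0.20, and Tet1 at mid AHA from 0.066 (without stiff, mid AHA replicate 1) to 0.16 (without stiff, mid AHA replicate 3), where it was called (adjusted p = 0.0213). The difference between concentrations was tested by an F test of equal soft minus stiff differences at the 3 concentrations, which called 0.0298% of all genes and 0 of the 9. DESeq2 also called 0 of the 9, with 4 under 0.05 before adjustment. By edgeR 902 of all 13438 tested genes were under 0.05 before adjustment, among them 4 of the 9. These were Dnmt3a (adjusted p = 0.24), Dnmt3l (adjusted p = 0.521), Uhrf1 (adjusted p = 0.601) and Dnmt3b (adjusted p = 0.633). A dependence of the stiffness difference on AHA was not detectable for any of the 9 genes in these libraries.

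AHA concentration was then compared within each stiffness. By edgeR Tet1 was the only one of the 9 genes called, with less RNA at high AHA than at low on average over both stiffnesses (-0.14 ± 0.030, log2, SE, adjusted p = 0.0223, 0.112% of all genes called) and on soft gels (-0.18 ± 0.044, adjusted p = 0.042, 0.253% of all genes called). On soft gels the 2 high AHA libraries lay below all 3 low AHA and all 3 mid AHA libraries, with 945 CPM in the library left out. Of all tested genes 9.62% separated these 2 libraries from the other 6 soft libraries in either direction. On stiff gels the low and high AHA libraries overlapped and the difference was -0.089 (adjusted p = 0.776). Both calls of Tet1 were lost with ERCC scaling, where the differences were -0.079 on average and -0.068 on soft gels, and in 6 of 17 fits that left out 1 library each, with adjusted p up to 0.474 on soft gels and 0.285 on average, both without soft, high AHA replicate 2. With that replicate set aside in place of replicate 1 they were lost too (adjusted p = 0.157 and 0.0569). On soft gels Tet1 was also not called by DESeq2 (adjusted p = 0.0775) or with all biotypes (adjusted p = 0.0789), whereas DESeq2 called it on average (adjusted p = 0.0204).

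Uhrf1 and Dnmt3l had the next smallest p-values on soft gels. Uhrf1 stood at 362 ± 2.05 CPM at low (SD, n = 3), 341 ± 5.55 CPM at mid (SD, n = 3) and 316 ± 20.8 CPM at high AHA (SD, n = 2), a difference of -0.19 ± 0.051 between high and low that did not pass edgeR's test (log2, SE, adjusted p = 0.0691). DESeq2 called it (adjusted p = 0.0366), as did edgeR with soft, high AHA replicate 2 or 3 set aside in place of replicate 1 (adjusted p = 0.000453 and 0.0273). Without soft, high AHA replicate 3 the difference was -0.13 (adjusted p = 0.515), and with 1 library left out it was as far from 0 as -0.27. With ERCC scaling it was -0.072 (adjusted p = 0.783). On average over both stiffnesses Uhrf1 was called with replicate 2 set aside (-0.14, adjusted p = 0.0384). The library left out had 296 CPM, and with all 18 libraries the difference was -0.23 (adjusted p = 0.00259). With Gm5648 added it was -0.18 (adjusted p = 0.0768). Dnmt3l differed by -0.17 ± 0.048 (adjusted p = 0.118), and with all 18 libraries Dnmt3l was called (-0.17, adjusted p = 0.0351), whereas with ERCC scaling it differed by -0.049 (adjusted p = 0.855).

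In the other AHA contrasts 0 of the 9 genes passed by edgeR or DESeq2. By edgeR at unadjusted p under 0.05 there were 1 for mid against low and 2 for high against mid AHA on soft gels, and 1, 2 and 3 for high against low, mid against low and high against mid AHA on stiff gels. Of all 13438 tested genes 820 and 915 on soft gels and 812, 671 and 783 on stiff gels were under it, in the same order. After adjustment few genes of any kind were called there, 0% and 0.067% on soft gels and 0.00744%, 0% and 0.00744% on stiff gels, in the same order. Dnmt3a had the lowest p among these and stood 14.2% higher at mid than at low AHA on stiff gels (adjusted p = 0.855).

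The genes around these enzymes were described by lists of pathway members. Of 23 partners and regulators of DNA methylation 3 were called (13%, against 8.59% of all tested genes), all higher on soft gels, with a median over the list of 0.035 against 0.0011 over all tested genes. Dppa3, which binds UHRF1 and keeps it off chromatin, rose from 15.0 ± 2.72 CPM on stiff to 20.9 ± 3.03 CPM on soft gels (0.50 ± 0.10, log2, SE, adjusted p = 8.59e-05). Prdm14, a repressor of the de novo methyltransferase genes in naive cells, stood at 12.5 ± 2.75 CPM on soft and 9.74 ± 1.73 CPM on stiff gels (0.38 ± 0.126, adjusted p = 0.0367), a call lost with DESeq2 (adjusted p = 0.0646) and in 9 of 17 fits that left out 1 library (adjusted p up to 0.124). Zfp57, a zinc finger protein that protects imprints, was higher by 0.15 ± 0.030 (adjusted p = 0.000108).

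On the erasing side, 3 of 18 TET partners and genes of 2-oxoglutarate and ascorbate supply were called (16.7%), all higher on soft gels, with a list median of 0.025. The share was 8.59% over all tested genes and 20.5% over those with a mean of 100 CPM or more. Ogt, the glycosyltransferase that binds TET proteins, rose from 201 ± 9.61 to 224 ± 10.1 CPM (0.16 ± 0.032, adjusted p = 7.65e-05). Slc23a2, an ascorbate transporter, was higher by 0.19 ± 0.055 (adjusted p = 0.0125, lost without soft, high AHA replicate 3 at 0.0773), and Psat1, a serine synthesis enzyme that yields 2-oxoglutarate, by 0.12 ± 0.040 (adjusted p = 0.0317, up to 0.128 with 1 library left out). Of 20 tested genes of active demethylation and base excision repair 1 was called (5%), Parp1, which rose from 687 ± 18.4 to 738 ± 11.7 CPM (0.10 ± 0.023, adjusted p = 0.000363). Lig3 and Xrcc1, the ligase and the scaffold of the same repair path and the most highly expressed after Parp1, differed by -0.0027 and 0.032 (adjusted p = 0.978 and 0.77). The list median was -0.0085.

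Of 10 methyl-CpG readers 0 were called by edgeR, 0 by DESeq2 and 0 had an unadjusted p under 0.05, and the most abundant, Mbd3 and Mbd6, differed by -0.041 and -0.0096 (adjusted p = 0.481 and 0.945). Of 21 tested genes of methyl donor supply 4 were called (19%, and 3 genes by DESeq2), 1 higher and 3 lower on soft gels, with a list median of 0.011. The share was 8.59% over all tested genes and 20.5% over those with a mean of 100 CPM or more. Tdh, the threonine dehydrogenase that feeds one-carbon metabolism in mESCs, rose from 135 ± 8.76 to 160 ± 13.2 CPM (0.24 ± 0.038, adjusted p = 3e-07). Mat2a, which makes S-adenosylmethionine, fell by 0.11 on the log2 scale (SE 0.031, adjusted p = 0.00776) and Ahcyl1, a relative of the enzyme that removes its product, by 0.13 (SE 0.036, adjusted p = 0.00844). With ERCC scaling the calls of Mat2a (-0.049, adjusted p = 0.639) and Ahcyl1 (-0.065, adjusted p = 0.538) were lost, and that of Ahcyl1 also without soft, high AHA replicate 3 (adjusted p = 0.0565). Mthfd2l was low in counts, at 3.28 ± 1.05 CPM on soft and 5.22 ± 1.61 CPM on stiff gels (-0.64 ± 0.206, adjusted p = 0.0317, up to 0.189 with 1 library left out). With ERCC scaling it differed by -0.57 and was not called (adjusted p = 0.0732).

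Germline genes that are silenced by promoter methylation were described as well. Of 24 tested, 1 was called, Ddx4, at 47.5 ± 5.13 CPM on soft and 41.8 ± 3.92 CPM on stiff gels (0.19 ± 0.063, adjusted p = 0.042), and that call was lost with all biotypes (adjusted p = 0.0501) and in 10 of 17 fits that left out 1 library (adjusted p up to 0.123). The most abundant, Rhox5 and Tex19.1, differed by 0.060 and -0.12 (adjusted p = 0.319 and 0.0847). The count was 1 of 24 (4.17%, against 8.59% of all genes), and the list median was 0.023.

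**Figure D5:**
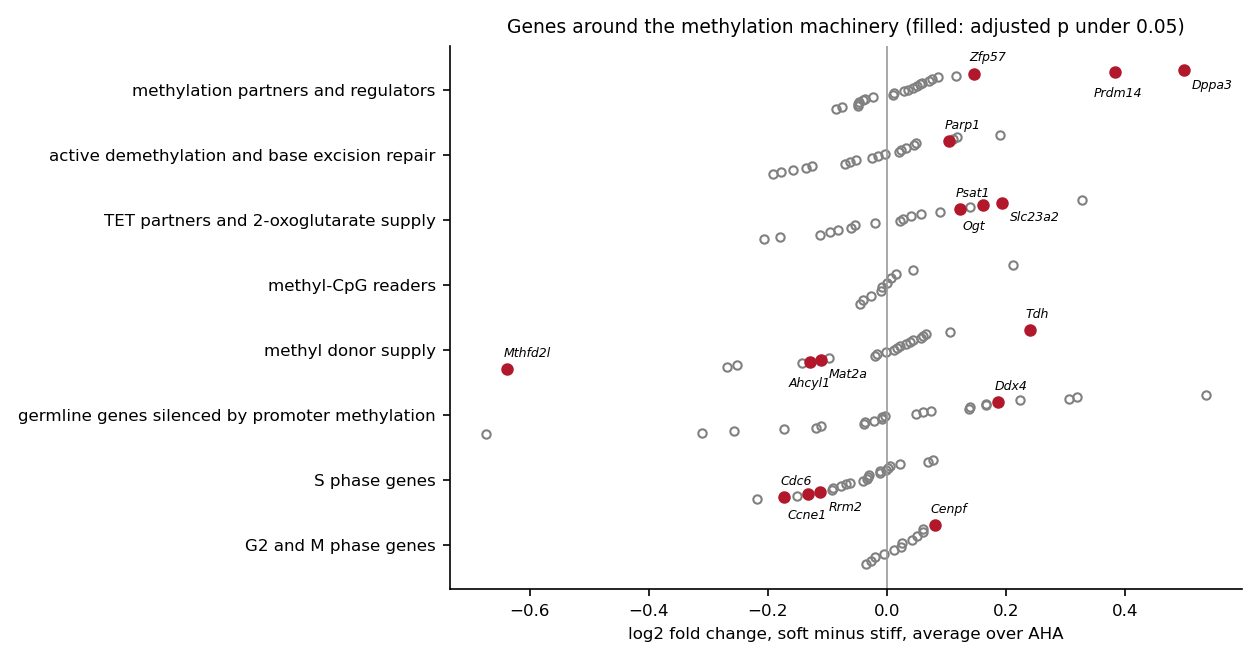
Log2 fold change, soft minus stiff averaged over AHA, of the tested genes of 8 pathway lists; each point is a gene, and filled, named points passed the test. The called genes of the first 3 lists all lie above 0, whereas 3 of the 4 called genes of methyl donor supply and all 3 called S phase genes lie below it.

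Because Dnmt1 and Uhrf1 follow replication, cell cycle genes were described with them. Of 22 S phase genes 3 were called (13.6%, where 4.82% of all genes were called lower), all lower on soft gels, with a list median of -0.037. Of 12 genes of G2 and M phase 1 was called (8.33%, where 3.77% of all genes were called higher), higher on soft gels, with a median of 0.025. Ccne1, Cdc6 and Rrm2 fell by 0.13, 0.17 and 0.11 on the log2 scale (adjusted p = 0.000228, 0.00333 and 0.0133), and all 3 calls were lost with ERCC scaling (-0.067, -0.11 and -0.050, adjusted p = 0.469, 0.294 and 0.644). The call of Rrm2 was also lost in 3 of 17 fits that left out 1 library, without soft, low AHA replicate 2, soft, high AHA replicate 2 or stiff, low AHA replicate 3 (adjusted p up to 0.0556). Cenpf rose by 0.081 (adjusted p = 0.0305, up to 0.127 with 1 library left out, and not called by DESeq2), while Top2a and Mki67, the most abundant of that list, differed by 0.051 and -0.019 (adjusted p = 0.122 and 0.715).

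Marker lists of 6 cell types were described for the same comparison. Of 8 pluripotency markers 6 were called (75%), all higher on soft gels, against 8.59% of all tested genes and 20.5% of those with a mean of 100 CPM or more. They were Nanog (0.38, adjusted p = 5.08e-14), Esrrb (0.35, adjusted p = 4.37e-20), Klf4 (0.26), Sox2 (0.19), Zfp42 (0.17) and Dppa5a (0.17). Pou5f1 (0.033, adjusted p = 0.514) and Tdgf1 (-0.069, adjusted p = 0.239) were not called. The summed level of the 8 markers ranged from 1960 to 2126 CPM on soft and from 1783 to 1946 CPM on stiff gels. Of 5 tested fibroblast markers 1 was called (20%), Col1a1, lower on soft gels (-0.49, adjusted p = 0.00282). Summed levels were 114 to 197 CPM on soft and 166 to 237 CPM on stiff gels, and Col1a1 alone had means of 109 and 155 CPM. Col1a2, Col3a1, Thy1 and Postn were not called and had at most 167, 82, 28 and 23 counts in a library. Dcn and Lum had at most 4 and 2 counts. Of 5 tested trophoblast markers 2 were called (40%), Krt8 (-0.36, adjusted p = 1.34e-23) and Tead4 (-0.24, adjusted p = 0.0181), both lower on soft gels. Summed levels were 361 to 424 CPM on soft and 453 to 524 CPM on stiff gels, and Krt8 alone had means of 329 and 426 CPM. Gata3, Eomes and Cdx2 were not called (-0.017, -0.27 and -0.23, adjusted p = 0.953, 0.183 and 0.62). These 3 had at most 132, 85 and 29 counts in a library, and Elf5 had at most 6. Of 7 primitive endoderm, 4 mesoderm and 5 markers of 2-cell-like cells tested 0 were called by edgeR or DESeq2, with 0, 0 and 1 under an unadjusted p of 0.05, and the summed levels were 36.9 to 51.1, 15.0 to 28.3 and 20.9 to 31.4 CPM on soft and 37.4 to 49.2, 16.5 to 29 and 23.9 to 37.2 CPM on stiff gels. The part of these cell types in the differences of the 9 genes was not tested.

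For each of the 5 genes that differed, the 3 genes with the most similar pattern over the 6 group means were found among 9224 genes of at least 10 CPM, by the root mean square difference of centred log2 CPM. For Tet2, whose group means span 0.35 on the log2 scale, they were Golga5 (0.023), Rpl13 (0.024) and Trp53inp1 (0.028). For Tet1 they were Hic2 (0.015), BC030867 (0.017) and Kif13b (0.017). For the de novo genes they were Ercc3, Mex3b and Myrf for Dnmt3b (0.011 to 0.017), Ppp1r14a, Ero1l and Dusp11 for Dnmt3l (0.012 to 0.015), and Ints12, Zbtb7b and Gas2l3 for Dnmt3a (0.017 to 0.030). None of the 9 genes was among the 3 nearest of another.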

How the data were processed

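RNA of 18 libraries was extracted from lysates with a genomic DNA digestion step and made into libraries with a pico-input mammalian kit. The authors trimmed reads (Trim Galore 0.4.4), used GSNAP for alignment to mm10 and HTSeq for counting over Ensembl genes, and the deposited values are raw counts that range from 5850621 to 9290261 per library. The strand setting was not stated. HTSeq summary lines took 61.5 to 64.0% of each column and were left out of library sizes. Symbols, exon lengths and positions came from GENCODE M21, and promoter sequences from RefSeq (GRCm38.p6).

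The robust quasi-likelihood test of edgeR 4.0.16 (R 4.3.3) was run on 17 libraries and on protein-coding genes kept by filterByExpr at a minimum count of 10, with TMM scaling and a coefficient for each group. Adjustment was by Benjamini-Hochberg over 13438 genes, called under 0.05. The study set aside outlier libraries of high ERCC share, and here the 1 library above 1.5 times the median share was left out. Its CPM came from a scaling over all 18 libraries. The biological coefficient of variation was 5.35%. The code of the fit was also run on simulated counts with known changes, which tests the code and not these libraries. DESeq2 1.42.0 was an alternative, and other settings are given in the closing section.

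The members and lists were chosen with earlier results of these data known. Named genes were all 9 members in every comparison, up to 4 called genes per pathway list (with the 2 most abundant where fewer than 2 were called), and the 3 nearest genes of each called member. Lists covered methylation partners, base excision repair, TET partners, methyl-CpG readers, methyl donors, germline genes, cell cycle phases and 6 sets of cell type markers. Transcript windows of 50 bases shared with other genes were counted on both strands from GENCODE transcripts.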

Additional observations from a re-analysis of the deposited data

Results flagged for a closer look

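The ERCC share of soft, high AHA replicate 1 was 1.37%, far from the other 8 soft libraries, of which the highest had 0.725%. This library was left out of the tests. Its levels of Tet2 (201 CPM), Uhrf1 (296 CPM), Dnmt3a (168 CPM), Tet1 (945 CPM) and Tdg (9.58 CPM) lay outside the range of the other 2 libraries of its group. Those of Dnmt1, Dnmt3b, Dnmt3l and Tet3 lay within it. A range of 2 libraries is narrow, and the share of all genes outside it was not counted.

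Tet3 stood at 79.8 CPM in soft, high AHA replicate 2, against 71.0 CPM in the next highest of 8 soft libraries. Of the 20 sets of libraries examined in this way 2 were set apart, and chance sets apart about 1 in 20.

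A total of 3 processed pseudogenes of Uhrf1 and Tdg, which were not among the protein-coding genes of the main test, had counts in every library: at least 367 for Gm5648, 95 for Gm9855 and 16 for Tdg-ps. Whether these reads came from the pseudogenes or from the parent genes was not tested. Dnmt3c, the paralogue beside Dnmt3b, had 3 to 13 counts.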

How the results depend on the processing

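No paired analysis was possible because the labels give no replicate numbers shared between groups. The count of 5 genes called between soft and stiff gels on average was 5 under RLE size factors, DESeq2, a filter of at least 2 counts, all biotypes, all 18 libraries, each other soft, high AHA library set aside in place of replicate 1, and each of the 17 fits that left out 1 library. It was 6 with pseudogene counts added, an alternative chosen after seeing the data, where the sum of Tdg and its pseudogenes was called (-0.22, adjusted p = 0.023). ERCC scaling left 2 called, and gave -0.082 for Dnmt3a, -0.066 for Dnmt3b, -0.062 for Dnmt3l, 0.036 for Uhrf1 and 0.025 for Tet3 on the log2 scale, the last 2 with the opposite sign. Uhrf1 at high AHA also changed sign under it (0.0057). Tet3 ranged from -0.094 to 0.0029, above 0 without soft, high AHA replicate 3, over the fits that left out 1 library.

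With ERCC scaling the calls among the 9 genes were 0 at low, 1 at mid and 1 at high AHA, and 0 for high against low AHA on average and on soft gels. It moved the median of all genes by 0.11 at high AHA, 0.12 for high against low and 0.11 for mid against low AHA on soft gels, and the cause was not tested. For high against low AHA on soft gels the calls were 0 with all biotypes, 3 with all 18 libraries (Tet1, Uhrf1 and Dnmt3l) 2 with soft, high AHA replicate 2 set aside (Uhrf1 and Dnmt3l, adjusted p = 0.000453 and 0.0483, without Tet1 at 0.157) and 2 with replicate 3 set aside (Tet1 and Uhrf1, adjusted p = 0.0248 and 0.0273). DESeq2 called 1 there, Uhrf1 (adjusted p = 0.0366) and not Tet1 (adjusted p = 0.0775). Leaving out 1 library gave 0 to 1 at low AHA, 2 to 4 at mid AHA, 1 to 3 at high AHA, and 0 to 1 for both AHA comparisons that called Tet1.

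Over all genes the calls at high AHA went from 113 to 56 with ERCC scaling, to 341 with all 18 libraries, to 384 or 257 with soft, high AHA replicate 2 or 3 set aside, and to between 42 and 117 with 1 library left out. They went at low AHA from 408 to 162 and at mid AHA from 384 to 169 with ERCC scaling, and with 1 library left out lay between 245 and 423 and between 222 and 424. For high against low AHA on average they went from 15 to 46 with DESeq2, 28 with the wider filter, 28 with all biotypes, 27 with soft, high AHA replicate 3 set aside and 7 with ERCC scaling, and lay between 5 and 65 with 1 library left out, as those on soft gels did between 2 and 69. Depth limits Tdg above all, with 25 to 83 counts in a library.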
